A study of Mus musculus with 18 samples.

Results

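The 37 genes described here are immediate early genes, read on mouse expression arrays that named 18194 genes in all. They were chosen by symbol from a list and not by a limit on any measured value, though with earlier results of these data known. All 37 had at least 1 probe set. Where a gene had several probe sets, the brightest one over the 18 arrays stands for it. Of the 37, 35 lay in the upper 60% of genes by mean signal (10916 genes) and were tested, while Nr4a3 and Plk3 lay below that limit and are given as values only. The array cells were of a mouse line called TKO, labelled as telomere dysfunctional and grown in DMEM with serum. One set of cells expressed p53ER, in which the p53 tumour suppressor is joined to a hormone receptor part so that it works only once 4-hydroxytamoxifen (4-OHT) is present; the other set was uninfected. Both were collected at 0 h and, after 4 h, with either vehicle or 100 nM 4-OHT, giving 6 groups of 3 arrays. The study set the 4 h time point to list genes that p53 may act on directly. The labels do not say what TKO stands for, which promoter drove p53ER, whether the p53ER cells were 1 clone or a pool, what the vehicle was, or whether the medium was changed at the start. Whether the replicates came from separate cultures is not stated either, so a p-value speaks only of the spread among the arrays, and that spread may be technical.

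Immediate early genes are switched on within minutes of a stimulus such as serum, a growth factor or stress, without new protein synthesis, because the factors that start them are already in the cell. Growth factor receptors act through the RAS and MAP kinase cascade on ternary complex factors bound beside SRF (serum response factor) at the CArG box, and cyclic AMP and stress kinases act on CREB and ATF proteins at the sequence TGACGTCA. Many of the transcripts are short lived. Several of the proteins they encode, among them the DUSP phosphatases and the Sprouty proteins, damp the same cascade, and the first peak of Fos or Egr1 has usually passed within hours.

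Promoter windows from RefSeq (GRCm38.p6, 250 bases before to 50 after a gene's start) were at hand for 28 of the 37 genes, and those of Dusp4, Egr1, Egr3, Fosl1, Ier2, Klf10, Myc, Phlda1 and Spry4 were not used here. The 4 windows below belong to genes on which the results turn: Egr2 and Dusp5 had the largest mean differences after 4 h, Dusp1 was lower after 4 h, and Plk2 had the smallest p by replicate number. They are shown because, of the 17 genes given in full, only these 4 had a CArG box or TGACGTCA in a window used here. The windows of Atf3, Dusp6, Fos, Ier3, Jun, Junb, Jund, Klf4, Nr4a1 and Zfp36l1 had neither. Capitals mark the CArG box in Egr2 and Dusp5 and TGACGTCA in Dusp1 and Plk2. The windows lie at chr10:67537619-67537918 (Egr2, plus strand), chr19:53528895-53529194 (Dusp5, plus strand), chr17:26508423-26508722 (Dusp1, minus strand) and chr13:110394794-110395093 (Plk2, plus strand), and each is written along the gene's own strand.
Egr2: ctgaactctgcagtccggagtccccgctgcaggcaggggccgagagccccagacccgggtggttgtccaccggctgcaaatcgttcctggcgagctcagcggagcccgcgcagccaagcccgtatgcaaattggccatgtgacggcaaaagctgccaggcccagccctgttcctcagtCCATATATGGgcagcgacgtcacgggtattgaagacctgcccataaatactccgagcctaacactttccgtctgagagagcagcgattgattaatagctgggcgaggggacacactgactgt
Dusp5: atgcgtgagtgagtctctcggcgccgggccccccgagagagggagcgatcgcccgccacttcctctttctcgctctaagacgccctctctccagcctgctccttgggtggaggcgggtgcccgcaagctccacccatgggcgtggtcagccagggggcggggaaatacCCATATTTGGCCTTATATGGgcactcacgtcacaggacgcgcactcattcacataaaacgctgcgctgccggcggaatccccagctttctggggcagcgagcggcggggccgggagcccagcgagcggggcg
Dusp1: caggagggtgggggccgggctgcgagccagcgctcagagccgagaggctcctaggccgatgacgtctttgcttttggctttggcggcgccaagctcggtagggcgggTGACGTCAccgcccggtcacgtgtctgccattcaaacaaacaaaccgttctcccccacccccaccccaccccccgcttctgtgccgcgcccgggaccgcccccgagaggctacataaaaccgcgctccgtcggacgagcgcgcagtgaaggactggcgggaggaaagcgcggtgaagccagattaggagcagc
Plk2: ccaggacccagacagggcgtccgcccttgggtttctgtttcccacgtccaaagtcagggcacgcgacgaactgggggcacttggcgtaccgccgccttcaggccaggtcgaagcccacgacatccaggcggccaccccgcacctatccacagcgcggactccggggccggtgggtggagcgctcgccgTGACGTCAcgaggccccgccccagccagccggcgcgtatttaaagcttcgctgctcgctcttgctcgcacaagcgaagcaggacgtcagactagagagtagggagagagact
The Dusp5 window held CArG boxes side by side, CCATATTTGG from -82 to -73 and CCTTATATGG from -72 to -63 relative to the start. In the Egr2 window shown the box CCATATATGG lay from -72 to -63. Egr2 had 5 windows with different starts, and 3 held this box. It lay from -73 to -64 and from -133 to -124 in those not shown, and another window held CCTTTTTTGG. TGACGTCA lay from -143 to -136 in Dusp1 and from -62 to -55 in Plk2.

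Motifs were searched on both strands. A CArG box was present in a window of 4 of the 28 genes (14.3%), Dusp5, Egr2, Srf and Zfp36, against 1.81% of 27025 genes with a window. TGACGTCA was found in Dusp1, Maff and Plk2 (10.7% against 2.03%). The AP-1 site TGACTCA, which Fos and Jun proteins bind, was found in none of the 28, against 5.95% of all genes. The EGR site GCGTGGGCG was found in Maff only (3.57% against 0.707%), and a single copy of the p53 core motif in Ier5 only (3.57% against 9.55%). These are matches of letters in a short window and do not show binding.

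The arrays differed in ways that the groups did not explain. The mean signal before scaling ran from 47.5 to 148. It was 82.9 to 148 on the arrays numbered 1, 58.1 to 88.8 on those numbered 2 and 47.5 to 73.5 on those numbered 3. The 3 arrays with the lowest median correlation with the rest were uninfected 0 h replicate 2 (0.899), p53ER vehicle replicate 1 (0.906) and p53ER 0 h replicate 3 (0.919). The other arrays lay between 0.928 and 0.961. Among these others, the arrays numbered 3 lay between 0.928 and 0.939, and those numbered 1 or 2 between 0.956 and 0.961. The 3'/5' signal ratio of Gapdh, a control for RNA that is degraded or copied incompletely, was 0.860 to 0.950 on the arrays numbered 3 and 0.782 to 0.841 on the others. The same ratio of beta-actin was not higher on the arrays numbered 3. It was 1.00 to 1.13 there, 1.10 to 1.22 on those numbered 1 and 1.05 to 1.15 on those numbered 2. As a check of active p53ER, Mdm2 rose by 2.92 ± 0.41 (log2 ± SE) with 4-OHT in p53ER cells (limma adjusted p = 0.0329) and was at -0.27 ± 0.41 in uninfected cells. Cdkn1a was at 2.19 ± 0.49 in p53ER cells (limma adjusted p = 0.438) and at -0.38 ± 0.49 in uninfected cells. With the replicate number as a block in the model, the limma adjusted p in p53ER cells was 0.00817 for Cdkn1a and 0.000251 for Mdm2. All 10 mesenchymal markers were well detected, with a summed scaled signal of 39950 to 65040, while the summed signals of the blood, endothelial, epithelial, muscle and neural lists lay between 52.4 and 348 on every array, with a floor of 2.05 on the log2 scale. Ptprc, Pecam1 and Cdh1, defining markers of blood, endothelial and epithelial cells, had means of 3.18, 2.96 and 2.95, while the brightest of those lists, Cd14, Kdr and Epcam, had 6.75, 5.90 and 6.82.

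Values below are log2 of the scaled signal plus a small offset, given in the order of replicates 1, 2 and 3, and a change is a difference of such values. In the heat map of all 37 genes the columns are ordered by replicate number. The test of that number, whose model holds number terms, gave calls among these genes, and the group comparisons without such terms gave none.

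**Figure D1:**
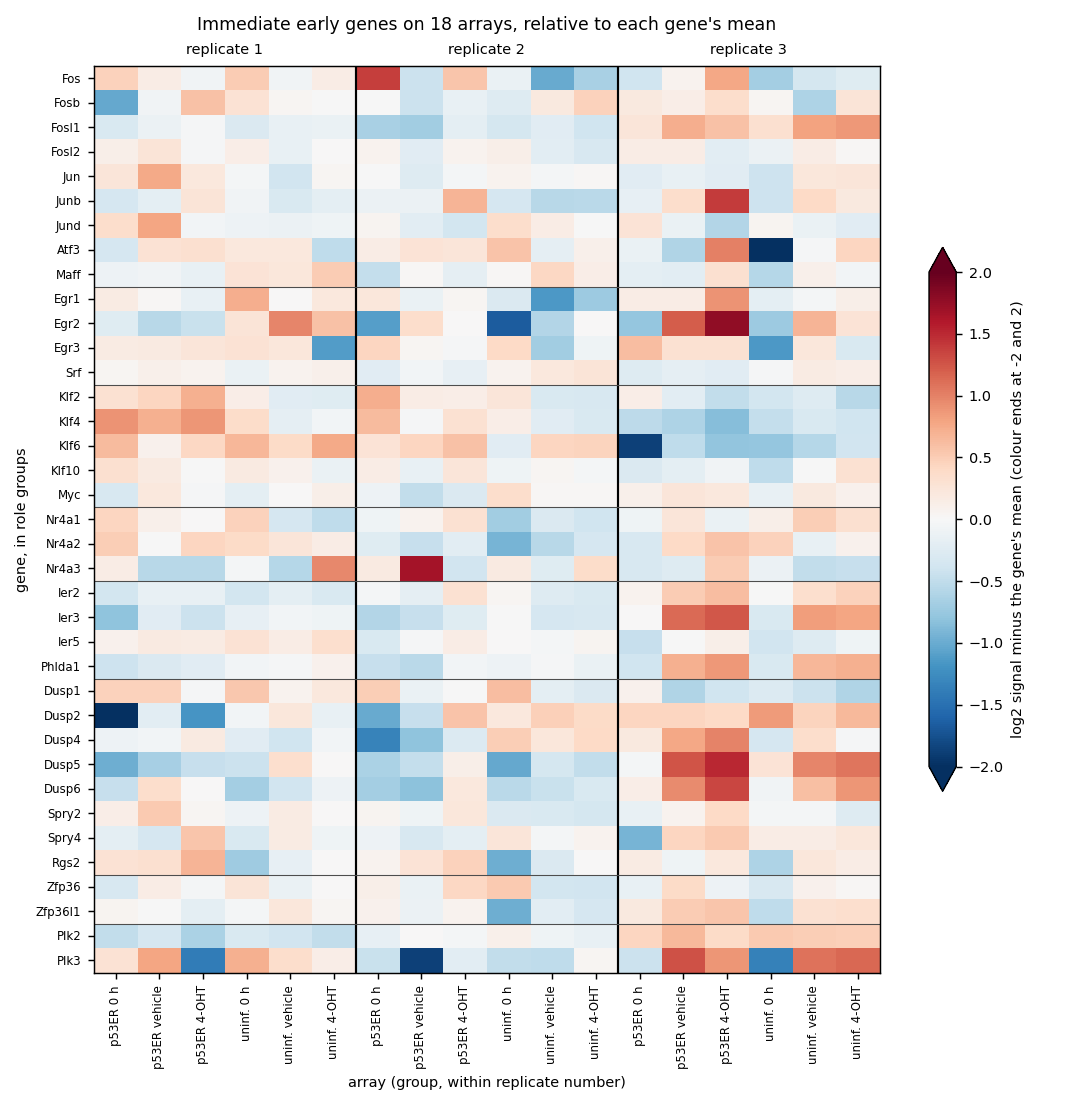
Log2 signal of each of the 37 genes (vertical axis, grouped by role) on each of the 18 arrays (horizontal axis, ordered by replicate number and then by group), as the difference from the gene's own mean. Red is above and blue below the mean, with the colour scale ending at -2 and 2; Plk2 and Fosl1 are red and Klf6 is blue in all 6 columns numbered 3.

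The first question is what 4 h of culture with vehicle did. No immediate early gene changed past the threshold in p53ER cells, in uninfected cells or in the average of both (limma, Benjamini-Hochberg adjusted p under 0.05, 0 of 35 in each), and 0% of all genes tested were called in each of these comparisons. The dual specificity phosphatase genes Dusp5 and Dusp6, Egr2 and Ier3 had the largest positive mean differences, and Fos, Dusp1, Egr1 and Klf4 the largest negative ones. Averaged over both cell types, 24 of the 35 genes lay above 0 and their median was +0.12, beside -0.03 for all 10916 genes. At an unadjusted p under 0.05 without a block, 3 of the 35 (8.57%) passed, beside 6.92% of all genes. In p53ER cells alone 0 did, beside 3.05%, and in uninfected cells alone 2 did, Rgs2 and Zfp36l1, beside 5.64%.

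The 9 tested genes of the Fos, Jun, ATF and Maf families, which pair up as AP-1 and related dimers, were 5 above 0 and 4 below. Of those not given in full, Fosb was at -0.0006, Fosl2 at -0.09 ± 0.11 and the small Maf protein gene Maff at +0.25 ± 0.15. Fos, the classic first responder, read 6.34, 7.26 and 5.48 at 0 h and 6.02, 5.45 and 5.94 with vehicle in p53ER cells. In uninfected cells it read 6.38, 5.75 and 5.20 at 0 h and 5.81, 4.87 and 5.53 with vehicle. Fos was thus lower at 4 h in replicates 1 and 2 of both cell types and higher in replicate 3 of both, and the groups overlapped. The mean difference was -0.46 ± 0.29 (limma adjusted p = 0.803). Leaving out the 3 arrays with the lowest correlations gave -0.75, and leaving out p53ER 0 h replicate 2 gave -0.24. Fosl1, Jun, Junb, Jund and Atf3, given in full with the comparisons where they stood out, had differences of +0.23, +0.09, +0.17, -0.11 and +0.26 here.

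Among the zinc finger factors of the EGR family and SRF, 2 of 4 lay above 0. Egr2, a factor also known for its role in myelin formation, read 5.47, 4.62 and 4.94 at 0 h and 5.16, 6.07 and 6.93 with vehicle in p53ER cells, and 5.98, 4.05 and 4.99 against 6.70, 5.13 and 6.40 in uninfected cells. It was higher with vehicle in 5 of the 6 pairs of arrays of the same number, but the groups overlapped in both cell types. The difference was +1.06 ± 0.43 (limma adjusted p = 0.682). The 0 h values of 4.62 and 4.05 lay below the mean of the dimmest gene tested (4.74). A second probe set for Egr2, with a mean of 4.21 and so below the signal limit, gave +1.40. Egr1, which starts many growth genes, read 8.85, 8.90 and 8.82 against 8.71, 8.55 and 8.83 in p53ER cells and 9.40, 8.39 and 8.48 against 8.69, 7.53 and 8.65 in uninfected cells. Its difference was -0.32 ± 0.25 (limma adjusted p = 0.874), with overlapping groups, and -0.13 without uninfected vehicle replicate 2 or -0.16 without uninfected 0 h replicate 1. Srf itself was at +0.14 ± 0.10 and Egr3, a relative of Egr1, at -0.08 ± 0.27.

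The Krüppel-like factors and Myc, which set growth and differentiation programmes, were 3 above 0 and 2 below. Klf4, one of the factors used to reprogramme cells, read 8.91, 8.65 and 7.50 at 0 h and 8.73, 7.99 and 7.40 with vehicle in p53ER cells. In uninfected cells it read 8.38, 8.15 and 7.54 at 0 h and 7.84, 7.79 and 7.71 with vehicle. The groups overlapped, and the difference was -0.28 ± 0.30 (limma adjusted p = 0.924). Leaving out those 3 arrays gave -0.63 (0.646), and leaving out 1 array gave between -0.12 (p53ER vehicle replicate 3) and -0.49 (p53ER 0 h replicate 3). Myc, the growth regulator, read 8.60, 8.81 and 9.02 at 0 h and 9.12, 8.42 and 9.16 with vehicle in p53ER cells, and 8.73, 9.26 and 8.76 against 8.93, 8.94 and 9.11 in uninfected cells. It was nearly level, at +0.08 ± 0.14 (limma adjusted p = 0.963), with overlapping groups. The other Krüppel-like genes, Klf2, Klf6 and Klf10, were at -0.27 ± 0.19, +0.25 and +0.03 ± 0.14.

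The orphan nuclear receptors of the NR4A family are induced by cyclic AMP, calcium and growth signals. Nr4a1 read 8.01, 7.49 and 7.50 at 0 h and 7.68, 7.64 and 7.83 with vehicle in p53ER cells, and 8.04, 6.88 and 7.70 against 7.24, 7.28 and 8.07 in uninfected cells. The groups overlapped, and the differences were +0.02 ± 0.21 for Nr4a1 and -0.06 ± 0.26 for Nr4a2 (limma adjusted p = 0.995 and 0.990). Nr4a3, below the signal limit, ranged from 4.11 to 6.35 over all arrays, the highest being p53ER vehicle replicate 2.

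All 4 tested genes of the IER group and Phlda1, whose products include regulators of survival and of AKT signalling, lay above 0, with a median of +0.25. Ier3, a survival factor, read 10.66, 10.87 and 11.47 at 0 h and 11.24, 11.01 and 12.59 with vehicle in p53ER cells, and 11.29, 11.46 and 11.16 against 11.41, 11.12 and 12.30 in uninfected cells. The replicate 3 arrays with vehicle were the high ones, and the groups overlapped. The difference was +0.46 ± 0.34 (limma adjusted p = 0.852). Leaving out the 3 arrays with low correlations gave +0.71, and leaving out p53ER or uninfected vehicle replicate 3 gave +0.21 or +0.29.

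Of the 8 genes for feedback on kinase and G protein signalling, 7 lay above 0 and Dusp1 below, with a median of +0.29. Dusp5, a nuclear phosphatase of ERK, read 7.13, 7.47 and 8.07 at 0 h and 7.44, 7.63 and 9.36 with vehicle in p53ER cells, and 7.67, 7.09 and 8.37 against 8.44, 7.75 and 9.09 in uninfected cells. It was higher with vehicle in 6 of 6 pairs of the same number, with overlapping groups, and differed by +0.65 ± 0.42 (limma adjusted p = 0.807), or +0.35 without p53ER vehicle replicate 3. With the replicate number as a block its SE was 0.19 (limma unadjusted p = 0.00319, adjusted p = 0.245). The rule for pairing by number, given with the processing, was not met in this comparison. Dusp6, the cytoplasmic ERK phosphatase, read 6.53, 6.32 and 7.13 against 7.35, 6.18 and 7.95 in p53ER cells and 6.31, 6.45 and 6.93 against 6.62, 6.55 and 7.59 in uninfected cells. It differed by +0.43 ± 0.32 (limma adjusted p = 0.864), and again the groups overlapped. Leaving out 1 array gave between +0.23 (p53ER vehicle replicate 3) and +0.67 (p53ER vehicle replicate 2). The receptor kinase inhibitors Spry2 and Spry4 were at +0.12 ± 0.13 and +0.20 ± 0.20, and the nuclear ERK phosphatase gene Dusp4 at +0.23 ± 0.31.

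Dusp1, which dephosphorylates p38 and JNK as well as ERK, went the other way from the other DUSP genes. It read 10.43, 10.46 and 10.05 at 0 h and 10.43, 9.84 and 9.37 with vehicle in p53ER cells. In uninfected cells it read 10.51, 10.58 and 9.69 at 0 h and 10.03, 9.78 and 9.54 with vehicle. Its values with vehicle were lower in both cell types in replicates 2 and 3 and level in replicate 1 of the p53ER cells, and the groups overlapped. The difference was -0.45 ± 0.20 (limma unadjusted p = 0.0368, adjusted p = 0.693).

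Zfp36 and Zfp36l1 encode proteins that bind AU-rich elements of short-lived transcripts and speed their decay. Zfp36l1 read 9.08, 9.11 and 9.22 at 0 h and 9.01, 8.90 and 9.54 with vehicle in p53ER cells, and 8.99, 8.04 and 8.52 against 9.24, 8.81 and 9.33 in uninfected cells. It was higher in all 3 pairs of the uninfected cells, where the groups overlapped. The difference over both cell types was +0.31 ± 0.18 (limma adjusted p = 0.785), and that of Zfp36 was -0.02 ± 0.16.

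Rgs2, which shortens signalling by G proteins, is named after its values were seen, as 1 of the 3 genes with an unadjusted limma p under 0.05 beside Egr2 and Dusp1. In uninfected cells it read 5.92, 5.66 and 6.01 at 0 h and 6.48, 6.35 and 6.85 with vehicle, so these groups did not overlap. In p53ER cells it read 6.92, 6.71 and 6.80 at 0 h and 6.95, 6.91 and 6.55 with vehicle. The change was +0.69 ± 0.19 in uninfected cells (limma adjusted p = 0.829) and -0.01 ± 0.19 in p53ER cells, and the difference between them was -0.70 ± 0.26 (limma adjusted p = 0.9998). It was the one member of 35 with an unadjusted p under 0.05 for that difference, beside 2.16% of all genes, and limma called 0. In uninfected cells the groups of Rgs2 and Phlda1 did not overlap, with vehicle higher, 2 of 35 genes beside 4.17% of all genes, and none of the 35 lay lower without overlap beside 7.29%. In p53ER cells none of the 35 was separated either way, beside 2.4% of all genes higher and 3.62% lower.

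With both 4 h groups set against 0 h in both cell types, the 35 genes again gave 0 calls by limma without a block, beside 0.0183% of all genes. Their median was +0.17, beside -0.04 for all genes, with 24 of 35 above 0, and 4 had an unadjusted p under 0.05 (11.4% beside 9.16%). The largest differences were +1.07 ± 0.37 for Egr2 (limma adjusted p = 0.421) and +0.71 ± 0.36 for Dusp5 (0.584). Dusp1 was at -0.48 ± 0.17 (limma adjusted p = 0.430). With the replicate number as a block, limma called Dusp1 alone among the 35 (adjusted p = 0.0364), beside 0.595% of all genes. The rule for pairing by number, given with the processing, was not met in this comparison. No member had all 12 arrays at 4 h above or below all 6 at 0 h, beside 0.0733% of all genes above and 0.0366% below.

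**Figure D2:**
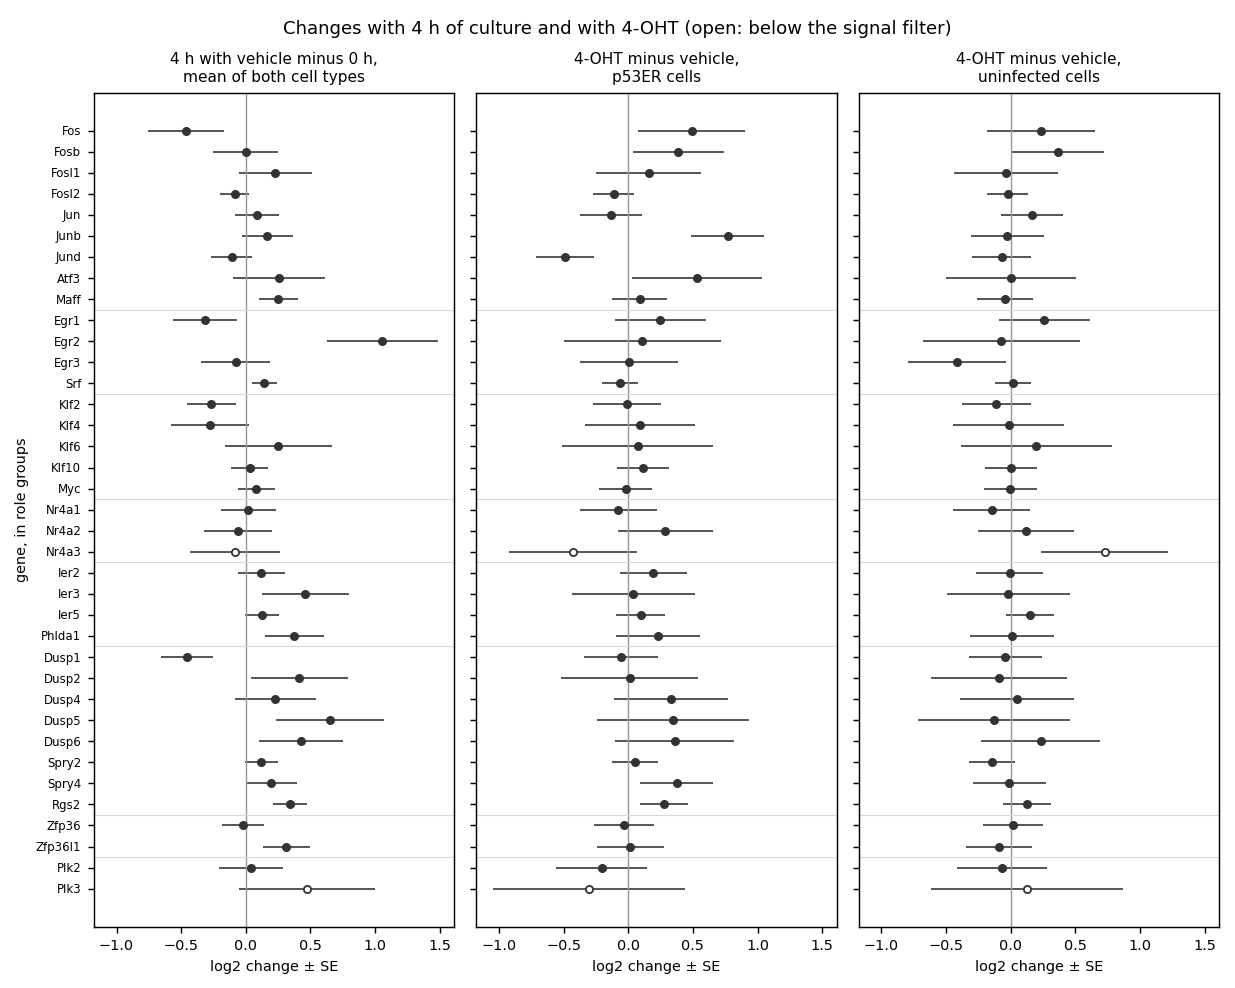
Log2 change ± SE (horizontal axis) of each gene (vertical axis, by role) in 3 comparisons: vehicle at 4 h minus 0 h averaged over both cell types, 4-OHT minus vehicle in p53ER cells, and 4-OHT minus vehicle in uninfected cells; SEs are from the linear model with 3 arrays a group, and open circles are Nr4a3 and Plk3. Among the tested genes the highest point is Egr2 at +1.06 on the left and Junb at +0.77 in the middle, where uninfected cells have Junb at -0.03.

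The second question is what 4-OHT added in cells with p53ER. None of the 35 genes changed (limma adjusted p under 0.05), beside 0.0183% of all genes, and 2 passed an unadjusted p of 0.05 (5.71% beside 3.22%). The AP-1 genes Junb, Atf3 and Fos had the largest positive differences and Jund, Plk2 and Jun the largest negative ones. The median of the 35 was +0.09, beside -0.01 for all genes, and 25 lay above 0. In uninfected cells 15 of 35 lay above 0, with a median of -0.01, beside -0.00 for all genes. There 0 genes were called by limma, beside 0% of all genes, and 0 of the 35 had an unadjusted p under 0.05, beside 0.77%. The vehicle arrays of p53ER cells end the 4 h comparison and are the control here, so values of the 2 comparisons are not independent. With the replicate number as a block, limma again called 0 of 35 in p53ER cells, beside 0.0733% of all genes, and 0 in uninfected cells.

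Junb, an AP-1 partner often induced later and longer than Fos, read 9.33, 9.42 and 9.88 with vehicle and 9.79, 10.22 and 10.93 with 4-OHT in p53ER cells. In uninfected cells it read 9.23, 8.98 and 9.94 with vehicle and 9.34, 9.00 and 9.73 with 4-OHT. In p53ER cells each 4-OHT array was above the vehicle array of its number, and only the lowest 4-OHT array fell below the highest vehicle array. The change was +0.77 ± 0.28 in p53ER cells (limma unadjusted p = 0.0144, adjusted p = 0.998) and -0.03 ± 0.28 in uninfected cells. Without p53ER 4-OHT replicate 3 it was +0.46 in p53ER cells. With the replicate number as a block the SE in p53ER cells was 0.22 (limma unadjusted p = 0.0029, adjusted p = 0.660). The difference between the cell types was +0.80 ± 0.40 (limma adjusted p = 0.9999). Its SE with the block was 0.31 (limma unadjusted p = 0.0205, adjusted p = 0.9999), though the rule for pairing by number was not met there.

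Atf3, a stress factor that is also a known p53 target, read 6.29, 6.27 and 5.40 with vehicle and 6.31, 6.25 and 7.00 with 4-OHT in p53ER cells. Replicates 1 and 2 were nearly level and replicate 3 was higher with 4-OHT, with overlapping groups, and the change was +0.53 ± 0.50 (limma adjusted p = 0.998) and -0.0049 without the arrays numbered 3. In uninfected cells Atf3 read 6.22, 5.81 and 5.97 with vehicle and 5.49, 6.10 and 6.42 with 4-OHT, a change of +0.00 ± 0.50. Fos read 6.02, 5.45 and 5.94 with vehicle and 5.81, 6.43 and 6.66 with 4-OHT in p53ER cells, a change of +0.49 ± 0.42 (limma adjusted p = 0.998). Its groups overlapped, leaving out 1 array gave between +0.31 (p53ER 4-OHT replicate 3) and +0.74 (p53ER 4-OHT replicate 1), and its change in uninfected cells was +0.24 ± 0.42.

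Jund, which in many cells opposes the growth effect of Jun, read 11.03, 10.03 and 10.11 with vehicle and 10.19, 9.87 and 9.66 with 4-OHT in p53ER cells. Each 4-OHT array was below its vehicle partner, but replicate 1 with 4-OHT lay above 2 of the vehicle arrays. The change was -0.49 ± 0.22 (limma unadjusted p = 0.0456, adjusted p = 0.998), -0.17 without p53ER vehicle replicate 1, an array of low correlation, and +0.23 by a second, much dimmer probe set. With the number as a block the SE in p53ER cells was 0.21 (limma unadjusted p = 0.0319, adjusted p = 0.907). In uninfected cells Jund was at -0.07 ± 0.22. Jun itself read 9.74, 8.72 and 8.84 with vehicle and 9.20, 8.94 and 8.76 with 4-OHT in p53ER cells, a change of -0.13 ± 0.24 that was +0.18 without p53ER vehicle replicate 1.

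Plk2, a polo-like kinase gene that p53 is known to activate, read 10.27, 10.61 and 11.24 with vehicle and 9.96, 10.56 and 10.97 with 4-OHT in p53ER cells. The change was -0.21 ± 0.35 (limma adjusted p = 0.998), with overlapping groups, and -0.07 ± 0.35 in uninfected cells. Each 4-OHT array was below the vehicle array of its number. The differences were -0.30, -0.05 and -0.26 in p53ER cells and -0.11, -0.07 and -0.02 in uninfected cells. With the number as a block the SE in p53ER cells was 0.10 (limma unadjusted p = 0.0556, adjusted p = 0.907). Leaving out 1 array without the block, which leaves the numbers uneven, gave between -0.44 and +0.0623. Plk3, below the signal limit, ranged from 2.74 to 5.87 over all arrays. Of the 8 genes listed as known p53 targets, Atf3, Plk2, Plk3, Klf4, Dusp1, Dusp2, Dusp5 and Ier5, 7 were tested, 0 were called by limma, 0 had an unadjusted p under 0.05, and their median change with 4-OHT was +0.09. The largest difference of the 4-OHT effect between cell types among them, after Atf3, was that of Dusp5 at +0.47 ± 0.83. It was -0.09 without p53ER 4-OHT replicate 3 and +1.08 without p53ER vehicle replicate 3, runs that leave the numbers uneven. With the number as a block its SE was 0.37 (limma adjusted p = 0.9999).

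The changes of the other tested members in p53ER cells lay between -0.11 for Fosl2, another FOS relative, and +0.39 for Fosb. The groups with 4-OHT and with vehicle overlapped for all 35 genes in both cell types, beside 3.39% of all genes that lay higher and 3.98% that lay lower without overlap in p53ER cells, and 2.38% and 1.91% in uninfected cells. Without a block, the test of the difference of the 4-OHT effect between cell types called 0 of the 35 genes, beside 0% of all genes. There 0 had an unadjusted p under 0.05, beside 1.56%.

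When p53ER cells after 4 h with 4-OHT were set against p53ER cells at 0 h, limma called 0 of 35 genes, beside 0.0183% of all genes, and the median was +0.26, beside -0.03. At an unadjusted p under 0.05, 3 of the 35 passed (8.57% beside 4.14%). These were Junb at +0.98 ± 0.28 (limma adjusted p = 0.721), Spry4, an inhibitor of receptor kinase signalling, at +0.71 ± 0.28 (0.9994), and Jund at -0.56 ± 0.22 (0.9994). The groups did not overlap for Junb, Atf3, Ier5 and Phlda1, which were higher with 4-OHT, 4 of 35 beside 4.56% of all genes. They did not overlap for Fosl2, Jund and Dusp1, which were lower, 3 of 35 beside 6.29%. This comparison holds the 4 h of culture and the agent together. With the replicate number as a block, limma called 0 of 35, beside 0.174% of all genes, and 12 of 35 had an unadjusted p under 0.05 (34.3% beside 7.25%), 10 of them above 0.

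**Figure D3:**
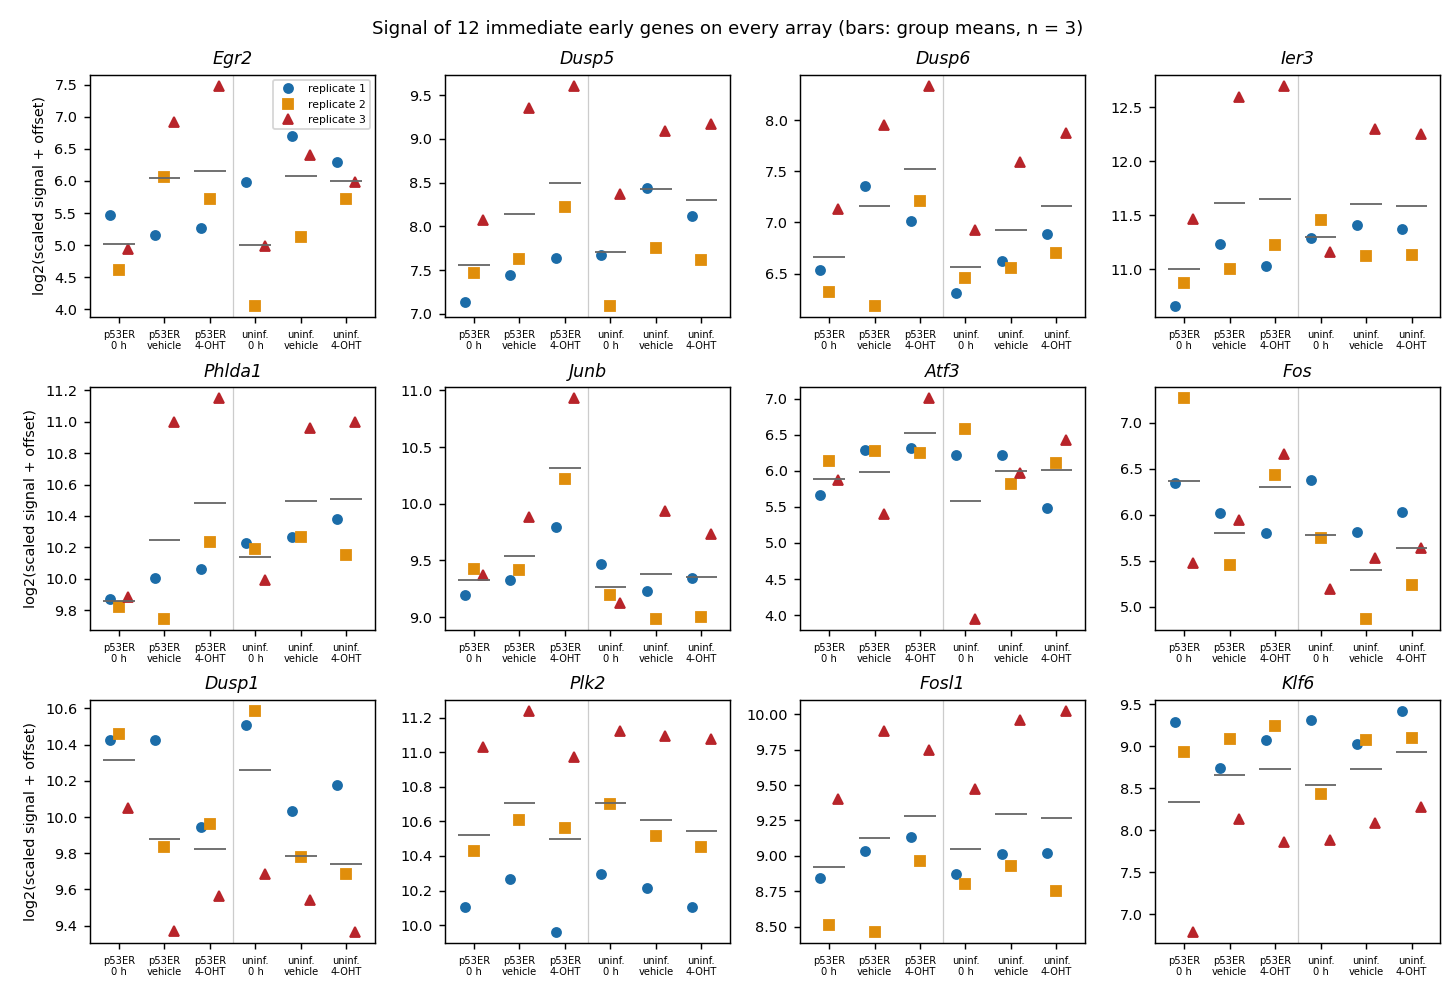
Log2 signal (vertical axis, a separate scale for each gene) of 12 of the genes on each array, in 6 groups (horizontal axis), with the symbol showing the replicate number and the bar the mean of 3 arrays. The triangles of replicate 3 lie above the other symbols in every group for Plk2 and Fosl1 and below them in every group for Klf6, and the 4 triangles at 4 h are the highest points for Phlda1, Ier3, Dusp5 and Dusp6.

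Untreated p53ER cells (0 h and vehicle) were also compared with untreated uninfected cells. Limma called 0 of the 35 genes, beside 0.0183% of all genes, the median was +0.05, beside -0.00, and 2 genes had an unadjusted p under 0.05 (5.71% beside 3.43%). Rgs2 was at +0.59 ± 0.13 (limma adjusted p = 0.876) and Dusp2, a phosphatase gene best known in immune cells, at -0.83 ± 0.37 (0.9987). For Rgs2, the 3 p53ER arrays at 0 h all lay above the 3 uninfected arrays at 0 h, while the vehicle groups overlapped. No member had all 6 untreated p53ER arrays above or below all 6 untreated uninfected arrays, beside 0.0916% of all genes above and 0.0458% below.

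The replicate number was the one term for which these genes passed the threshold when the group comparisons had no block. Its model held number terms and those of the group comparisons did not, so the tests measured a different spread. Of the 35 genes, 13 differed between replicate numbers (limma F-test with group means in the model, adjusted p under 0.05), which is 37.1%, beside 16.8% of all genes. In 9 of the 13, the arrays numbered 3 had the higher mean, and in 4 the lower. The labels do not say what a replicate number stands for. The arrays numbered 3 also had the higher Gapdh 3'/5' ratio given above, while their beta-actin ratio was not higher. Their mean signal before scaling was 47.5 to 73.5, beside 58.1 to 88.8 for number 2 and 82.9 to 148 for number 1. Their median correlations with the rest were 0.919 to 0.939. The mean signals of the 10 mesenchymal markers there lay between -1.54 (Pdgfrb) and -0.004 (S100a4) of those on the others. The part of these features in the result was not tested. Col3a1 (-1.05), Col1a1 (-0.95) and Thy1 (-0.92) were also among the lower ones, and Col1a2 (-0.04), Vim (-0.15) and Fn1 (-0.18) were nearly level. The summed signal of the 10 mesenchymal markers was 39950 to 50820 on the arrays numbered 3, 41610 to 52890 on those numbered 1 and 50600 to 65040 on those numbered 2. In bulk samples such as these, fewer cells of a kind and less RNA per cell cannot be told apart.

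Plk2 had the smallest p, though not the largest difference. On the 6 arrays numbered 3 it ran from 10.97 to 11.24 with a median of 11.09, and on the other 12 from 9.96 to 10.70 with a median of 10.36, with no overlap. The difference was +0.74 (limma F-test adjusted p = 1.34e-06), while a second Plk2 probe set near the floor gave -0.06. Fosl1, the Fos family member FRA-1 that marks sustained ERK activity, ran from 9.40 to 10.02 (median 9.81) against 8.46 to 9.13 (median 8.90), again with no overlap. It rose by 0.88 on the arrays numbered 3 (limma F-test adjusted p = 1.58e-05), and its second probe set gave +0.71.

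Of the phosphatase genes, Dusp5, Dusp6 and Dusp2 were called higher on the arrays numbered 3, Dusp1 was called lower, and Dusp4 (+0.49) did not pass (limma F-test adjusted p = 0.385). Dusp5 ran from 8.07 to 9.61 (median 9.13) against 7.09 to 8.44 (median 7.64), a difference of +1.26 (limma F-test adjusted p = 0.000248). Dusp6 ran from 6.93 to 8.34 (median 7.74) against 6.18 to 7.35 (median 6.59) and differed by +0.96 (0.00054). The ranges overlapped for both, and within each of the 6 groups the array numbered 3 was the highest for both genes. Ier3 ran from 11.16 to 12.70 (median 12.28) against 10.66 to 11.46 (median 11.18), and Phlda1 from 9.89 to 11.15 (median 10.98) against 9.74 to 10.38 (median 10.17). Their differences were +0.93 (0.00693) and +0.56 (0.0317), and both spread widely within the arrays numbered 3. Dusp2 differed by +0.80 (0.023) and the short-lived nuclear factor gene Ier2 by +0.49 (0.00342). Nr4a2, a nuclear receptor induced by cyclic AMP, passed as well (0.0170), with means of 6.21, 5.47 and 6.10 for numbers 1, 2 and 3, so replicate 2 was the low one.

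Klf6, a zinc finger factor with growth suppressing activity, was the largest in the other direction. It ran from 6.79 to 8.27 (median 7.98) on the arrays numbered 3 and from 8.43 to 9.41 (median 9.08) on the others, with no overlap. The difference was -1.22 (limma F-test adjusted p = 0.000697), and all 5 Klf6 probe sets were lower there, by between 0.36 and 1.22. Klf4 ran from 7.17 to 7.71 (median 7.52) against 7.70 to 8.91 (median 8.24), and Dusp1 from 9.37 to 10.05 (median 9.55) against 9.68 to 10.58 (median 10.10). Klf4 fell by 0.79 (0.00342) and Dusp1 fell by 0.55 (0.00168), each being lowest on the array numbered 3 within all 6 groups. Ier5, a gene induced by growth factors and heat stress, fell by 0.27 (0.0206).

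The 13 genes thus did not share a direction, and the median difference over the 35 genes was +0.10, beside -0.00 for all genes. With the 3 arrays of low correlation left out, the same 13 genes were called, beside 22.2% of all genes. With all arrays numbered 3 left out, 0 of 35 were called by limma, beside 0% of all genes, and 7 had an unadjusted p under 0.05 (20% beside 7.96%).

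Because replicate numbers and culture time cross each other, the 4 h change was also read within each replicate number, as the mean of the vehicle and 4-OHT arrays minus 0 h, averaged over both cell types. The median of the 35 genes was +0.05 in replicate 1, -0.00 in replicate 2 and +0.36 in replicate 3, beside -0.01, -0.06 and -0.07 for all genes. A change over 0.5 was seen for 3 of the 35 genes in replicate 1 (8.57% beside 2.28% of all genes), for 4 in replicate 2 (11.4% beside 10.6%) and for 12 in replicate 3 (34.3% beside 8.56%). In replicate 3, 29 of 35 lay above 0 and none below -0.5, beside 11.1% of all genes below -0.5.

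The 12 genes were Fos, Junb, Atf3, Egr2, Klf6, Ier3, Phlda1, Dusp4, Dusp5, Dusp6, Spry4 and Zfp36l1. Jun, Egr1, Myc and Plk2 were not among them. Since p53ER 0 h replicate 3 was among the 3 arrays of low correlation, the cell types were also read singly. In p53ER cells 13 of 35 genes were over 0.5 in replicate 3 (37.1% beside 14.7%) and in uninfected cells, where no replicate 3 array was among them, 15 were (42.9% beside 9.45%).

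Phlda1, a pleckstrin homology gene induced through ERK, showed the clearest form of this. In replicate 3 it read 9.89 at 0 h, 11.00 with vehicle and 11.15 with 4-OHT in p53ER cells, and 9.99, 10.96 and 11.00 in uninfected cells. On the 12 arrays numbered 1 or 2 it stayed between 9.74 and 10.38. The 4 h change was +0.13, +0.09 and +1.09 for numbers 1, 2 and 3. Ier3 had a like pattern: the 4 arrays of replicate 3 at 4 h ran from 12.26 to 12.70, and none of the other 14 was above 11.47. Its 4 h change was +0.29, -0.04 and +1.15.

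Other genes varied within the pattern. Junb changed by +0.09, +0.10 and +0.87, and Fos by -0.44, -1.01 and +0.60, so the sign for Fos differed. Egr2 changed by +0.13, +1.33 and +1.74 and Dusp5 by +0.51, +0.53 and +1.09, above 0 in all 3 numbers. Atf3 changed by +0.14, -0.25 and +1.29, where uninfected 0 h replicate 3 read 3.95, the lowest of its 18 values. Klf6 changed by -0.24, +0.45 and +0.75, where p53ER 0 h replicate 3, an array of low correlation, read 6.79, the lowest of its values. Dusp1 changed by -0.32, -0.71 and -0.41, below 0 in all 3, and Plk2 by -0.06, -0.03 and +0.02.

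The difference of the 4 h change between replicate numbers was tested after the pattern was seen, as the interaction of time and number (limma F-test, 8 residual degrees of freedom). It called 0 of the 35 genes, beside 0% of all genes, and 7 of the 35 had an unadjusted p under 0.05 (20% beside 5.08%). The smallest adjusted p was 0.41, for Phlda1, followed by 0.679 for Ier3. No gene's 4 h change in replicate 3 was thus shown to differ from that in the other numbers, and each number holds only 2 arrays at 0 h.

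**Figure D4:**
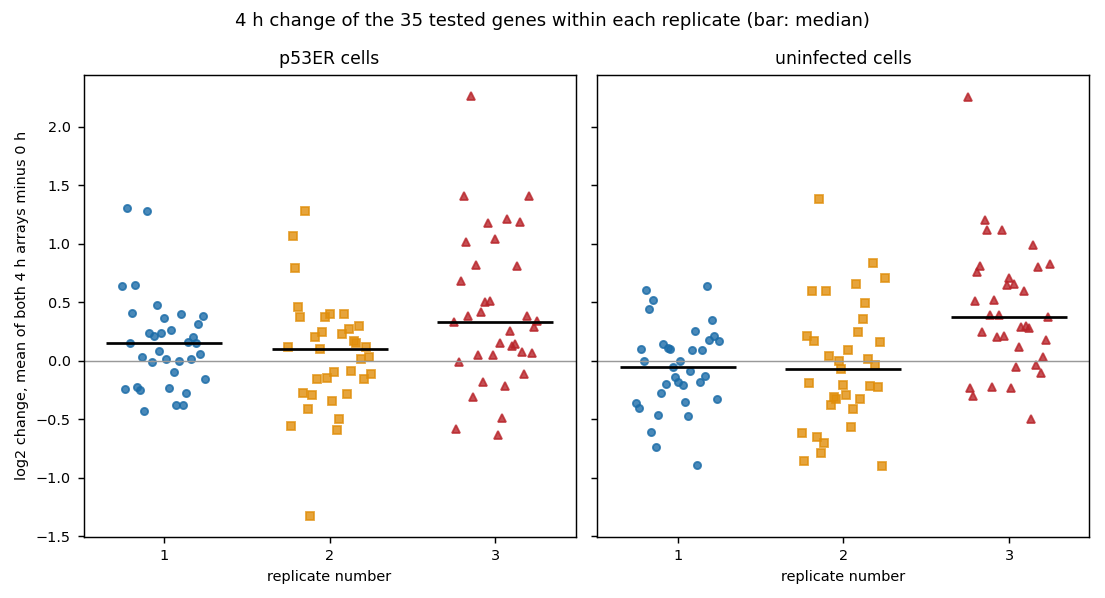
The 4 h change of each of the 35 tested genes (vertical axis, log2, mean of the vehicle and 4-OHT arrays minus 0 h) within each replicate number (horizontal axis), in p53ER cells and in uninfected cells; each point is 1 gene and the bar is the median. The bar lies higher for replicate 3 than for the other numbers in both cell types, at +0.33 and +0.37.

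Other genes of the same pathway were read from lists drawn up with earlier results of these data known. Of the MAP kinase cascade and SRF cofactors, 17 were tested and 0 were called by limma after 4 h with vehicle, with a median of -0.02 and 2 at an unadjusted p under 0.05 (11.8% beside 6.92%). The largest differences were those of the SRF partners Elk3 (+0.39 ± 0.18, limma adjusted p = 0.719) and Elk4 (+0.31 ± 0.15, 0.736). The 10 cytoskeletal targets of SRF and its MRTF cofactors gave 0 calls and none at an unadjusted p under 0.05, with a median of +0.02, and their largest difference was +0.10 ± 0.35 for Tagln.

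Of 31 tested genes in a list of further early and delayed early genes, limma called 0 after 4 h with vehicle, but 13 had an unadjusted p under 0.05 (41.9% beside 6.92%), 10 of them above 0. Because earlier results of these data were known when the list was drawn up, this share is not an independent test. The cytokine gene Lif was at +2.03 ± 0.72 (limma adjusted p = 0.650), the synaptic gene Arc at +1.31 ± 0.61 (0.723) and the EGF receptor ligand gene Ereg at +1.29 ± 0.54 (0.690). With 4-OHT against vehicle in p53ER cells, limma called 0 of these 31 genes and 2 had an unadjusted p under 0.05 (6.45% beside 3.22%), and 0 of the 17 and 0 of the 10 genes of the other lists passed either limit. In p53ER cells with 4-OHT against 0 h, where the replicate numbers pair the arrays, Lif rose by 2.63 with the number as a block (limma adjusted p = 0.0368; 0.9994 without the block).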

How the data were processed

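RNA from 18 cell samples was hybridised to Affymetrix mouse arrays. The deposited files hold linear intensities, which the submitters' processing notes credit to MAS5; its version and further steps are not given in the sources used here. No spots were left out by detection call. There were 45101 probe sets. Signals were multiplied so that every array had the same mean after trimming 2% (82.7), then 5% of it (4.13) was added before taking log2. Probe sets with 1 listed gene (34958) were named, 34754 of them through Entrez ID and RefSeq names (GRCm38.p6), while 932 had several genes and 9211 none. Some genes are not analysed here. The dimmest gene tested had a mean log2 signal of 4.74.

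A model of 6 group means was fitted over all 18 arrays with limma (12 residual degrees of freedom, trended and robust prior), with two-sided p-values adjusted by Benjamini-Hochberg over 10916 genes and called at 0.05. No exact permutation p below 0.1 can come from 3 arrays against 3. The number of arrays limits the precision. The replicate number was tested with an F-test of added number terms. Code was tested on simulated data.

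The members, the lists, the motifs and the comparisons were chosen with earlier results of these data known. Full values are given for the genes with the 4 largest differences each way after 4 h with vehicle, the 3 largest each way with 4-OHT and in its difference between cell types, the 3 smallest p for replicate number, and the brightest gene of each role; 17 genes met this. Up to 3 genes with the largest change are named from each other list.

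Deviations from the group means correlated above 0.1 between all arrays of the same number in p53ER cells with 4-OHT against vehicle (0.209 to 0.449) and against 0 h (0.271 to 0.467) and between uninfected 4-OHT and vehicle arrays (0.306 to 0.618), so the numbers pair these arrays. The remaining 7 comparisons did not meet this (lowest -0.341). The alternatives were quantile normalization, no offset and one of 20%, no filter and a stricter one (upper 40%), second probe sets, the replicate block (10 residual degrees of freedom), array weights, a plain prior, only the groups compared, and leaving out each array, the 3 arrays that lay apart or all arrays numbered 3. The test of time by number, and the block without the 3 arrays, were chosen after seeing the data. R 4.3.3, limma 3.58.1, data.table (1.17.8), statmod 1.5.0, Python 3.11.15, pandas 2.3.3 and matplotlib 3.10.9 were used.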

Additional observations from a re-analysis of the deposited data

How the results depend on the processing

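Every comparison of groups kept 0 members called in each alternative run, apart from all 4 h arrays against 0 h. There the replicate block gave 1, Dusp1 at -0.48 (limma adjusted p = 0.0364), among 65 of all genes (0.595%), and the block without the 3 arrays that lay apart gave 1, again Dusp1 at -0.43 (0.0288). In that comparison the numbers did not meet the rule for pairing, a correlation above 0.1 between all arrays of the same number. The rule took in 45 pairs of arrays there and 3 in each paired comparison. Still, 14 of 18 arrays correlated best with their own number. The block also called 5 genes of the further early list, Lif, Arc, Errfi1, Hbegf and Tnfaip3, all above 0. In the paired comparisons the block left 0 members called. Over all genes it called 8 for 4-OHT against vehicle and 19 for 4-OHT against 0 h in p53ER cells, in place of 2, and 6 for vehicle against 0 h and 1 for the difference of the 4-OHT effect, in place of 0. Array weights called 16 for all 4 h arrays, 4 for 4-OHT against vehicle and 28 for 4-OHT against 0 h. Leaving out the 3 arrays called 9 and 6 for the first and last of these. Second probe sets called 7 for the last. The block without those 3 arrays called 35 for vehicle against 0 h, 93 for all 4 h arrays, 9 for 4-OHT against vehicle and 26 for 4-OHT against 0 h. The other settings, leaving out single arrays aside, gave 0 to 4, against main counts of 0 or 2. By replicate number, second probe sets called 3 of 17 members (Plk2 adjusted p = 0.899). Without the arrays numbered 3, 0 of 35 were called (Plk2 0.424, Fosl1 0.583, Dusp5 0.944), and 0 of all genes in place of 1837. Leaving out 1 array gave 11 to 15 members called by number, 1315 to 2121 of all genes, 0 to 14 of all genes for all 4 h arrays, and 0 to 5 for 4-OHT against vehicle in p53ER cells. The causes were not tested. Of 679 values of named genes under alternatives 17 reversed, none of them called. Jund with 4-OHT was +0.23, and its difference between cell types +0.56, by the second probe set. Jun was +0.0895 with array weights, +0.18 without the 3 arrays and +0.17 with the block as well, and its difference +0.0190 and +0.0007. Atf3 was -0.0049 without the arrays numbered 3. Leaving out 1 array, the values for 4-OHT in p53ER cells ran from -0.44 to +0.0623 for Plk2 and -0.32 to +0.18 for Jun, and the differences from -0.39 to +0.13 for Plk2, -0.49 to +0.02 for Jun and -0.0866 to +1.08 for Dusp5. The runs with 1 array left out had no block, so they also left the replicate numbers uneven between groups. The median of the members kept its sign in every setting for all 4 h arrays (+0.07 to +0.20) and for vehicle against 0 h in p53ER cells, but not for vehicle in uninfected cells (-0.12 to +0.20) or 4-OHT in p53ER cells (-0.02 to +0.19). Signal near the floor limits Nr4a3, Plk3 and Fosb. Single arrays of other genes also read below the mean of the dimmest gene tested (4.74), such as those of Egr2 (down to 4.05), Dusp2 (3.68) and Atf3 (3.95).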
